A study of Mus musculus with 9 samples.

Results

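The astrocyte maturation genes described here are 38 mouse genes that astrocytes use or raise as they mature, taken by symbol from a list. All 38 were found among the 23420 gene symbols of the deposited expression table. All 38 also passed the filter for testing, a level of at least 1 TPM (reads per gene length, scaled so that each library sums to 1000000) in at least 3 libraries, which left 13839 genes. By role they fall into 12 secreted and matrix proteins, 9 enzymes and metabolite binding proteins, 6 receptors and other membrane proteins, 4 transcription factors, 3 intracellular signalling and turnover proteins, 3 metallothioneins and the calcium binding marker S100b. The cells were neural stem cells cultured from the hippocampus of wild type C57BL/6J mice aged 2 days, and every group was kept in a medium lacking bFGF and EGF so that the cells could differentiate. The groups were 3 µM NAT, a compound known only by this code, 3 µM P7C3-A20, an aminopropyl carbazole, and the vehicle DMSO, with 3 RNA sequencing libraries each. The labels call the libraries biological replicates without saying whether cultures or animals were separate, so a p-value reflects library to library spread, which may be technical. The comparisons ask how each compound at the same dose stands against the vehicle, and how the compounds stand against each other.

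Astrocytes arise from radial glia and other neural stem cells after neurogenesis has begun. Nuclear factor I proteins open the gliogenic programme together with STAT3 signalling, and the cells then acquire the enzymes, receptors, transporters and secreted proteins that let them feed neurons, clear transmitters, organise synapses and buffer metals. Stem cells of the hippocampus keep many features of astrocytes, so several of these genes are active in stem cells too. In bulk RNA, fewer cells of a type and less RNA per cell cannot be told apart.

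The element through which the factor MTF1 answers to zinc was searched in the promoters of the metallothioneins. These promoters are shown because their genes were among the most abundant members. RefSeq promoter windows, 250 bases before to 50 bases after an annotated start on build GRCm38.p6, were found for 33 of the 38 genes. In the lines that follow, bases in capitals mark a metal response element, spelled TGCACNC or TGCGCNC and searched on both strands, in the windows of Mt1 (chr8:94178839-94179138, plus strand), Mt2 (chr8:94172368-94172667, plus strand) and Mt3 (chr8:94152357-94152656, plus strand).
Mt1: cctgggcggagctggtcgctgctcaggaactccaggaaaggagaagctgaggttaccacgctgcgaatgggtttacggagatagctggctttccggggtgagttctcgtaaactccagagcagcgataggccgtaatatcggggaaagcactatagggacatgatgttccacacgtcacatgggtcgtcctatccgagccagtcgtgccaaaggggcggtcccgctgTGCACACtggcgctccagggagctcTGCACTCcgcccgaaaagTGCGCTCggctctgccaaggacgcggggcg
Mt2: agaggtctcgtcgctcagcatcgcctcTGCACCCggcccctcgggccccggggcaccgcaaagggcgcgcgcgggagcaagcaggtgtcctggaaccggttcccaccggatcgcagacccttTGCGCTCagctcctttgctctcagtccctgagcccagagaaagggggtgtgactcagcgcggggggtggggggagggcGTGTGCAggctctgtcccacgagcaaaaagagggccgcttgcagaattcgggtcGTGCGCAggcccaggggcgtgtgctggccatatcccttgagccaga
Mt3: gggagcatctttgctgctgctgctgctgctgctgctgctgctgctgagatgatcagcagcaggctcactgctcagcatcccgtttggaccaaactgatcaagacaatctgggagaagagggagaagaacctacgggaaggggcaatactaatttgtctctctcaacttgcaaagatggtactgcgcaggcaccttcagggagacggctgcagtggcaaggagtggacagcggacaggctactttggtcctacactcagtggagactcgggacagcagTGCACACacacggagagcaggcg
The Mt2 window held 4 matches, the Mt1 window 3 and the Mt3 window 1. At least 4 matches were present in 0.517% of all 32851 windows, at least 3 in 1.97% and at least 1 in 25.7%. Over all members, 9 of 33 held at least 1 match. A gene can have more than 1 window, so this count of genes and the share of windows differ in unit.

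Stretches of 3 other promoters are shown because their genes stood apart from the vehicle or between compounds in some libraries. Capitals mark a STAT element, TTCNNNGAA, near Ntsr2 (chr12:16653383-16653441, plus strand), and a cAMP response element, TGACGTCA, near Dio2 (chr12:90739101-90739158, minus strand) and Daam2 (chr17:49564332-49564389, minus strand). Both motifs read the same on either strand, and none of the capitals overlaps another motif searched.
Ntsr2: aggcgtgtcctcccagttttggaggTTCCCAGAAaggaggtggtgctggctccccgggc
Dio2: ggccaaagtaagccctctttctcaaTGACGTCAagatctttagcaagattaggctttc
Daam2: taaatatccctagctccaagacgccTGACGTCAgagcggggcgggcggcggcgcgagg
The STAT element was present for 7 of the 33 genes, namely Acsbg1, Agt, Aldoc, Nfix, Ntsr2, Pla2g7 and Prodh, and in 8.3% of all windows. The cAMP response element was present for Daam2 and Dio2 alone among the 33 genes and in 1.79% of all windows. The full palindromic site of nuclear factor I was in none of the 33 genes' windows and in 0.0365% of all windows. These counts are of genes, which can have more than 1 window, while the shares are of single windows. A match is a run of letters and was not tested as a binding site.

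Whole reads recovered from the TPM values came to 12994081 to 13803959 in the NAT libraries, 15885313 to 17217584 in the P7C3-A20 libraries and 12028821 to 14109316 in the DMSO libraries. The progenitor genes Sox2, at 607 ± 33.6 TPM in DMSO libraries (SD, n = 3), and Nes, at 209 ± 12.6 TPM there, were expressed in every library. Markers of microglia were near absent. Of 12, the 4 genes Trem2, Ctss, Cx3cr1 and C1qc had a TPM of 0 in all 9 libraries, and the 12 summed to 8.33 to 10.4 TPM in NAT, 9.25 to 10.3 TPM in P7C3-A20 and 7.64 to 9.41 TPM in DMSO libraries. Throughout, 0 TPM was also listed for the endothelial genes Cdh5 and Cldn5 and for the haemoglobin genes Hba-a1, Hba-a2, Hbb-b1 and Hbb-b2. The other genes of these lists that the expression table held were detected at low levels in some or all libraries. The 11 endothelial and pericyte genes summed to 8.38 to 9.82 TPM in NAT, 8.68 to 8.98 TPM in P7C3-A20 and 8.02 to 8.39 TPM in DMSO libraries. The endothelial gene Flt1 was at 4.02 to 5.32 TPM and the blood gene Alas2 at 0.895 to 3.43 TPM over the 9 libraries. P7C3-A20 replicate 3 stood apart from the other libraries: relative to the mean of all libraries, its log2 levels had a slope of 0.114 per 10 percentage points of transcript GC content, against -0.0619 to 0.0366 in the other 8 libraries. It was the lowest of the 9 libraries for 14 of the 38 members, and for 23.9% of all genes tested.

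The members together took up 30244 to 31397 TPM in NAT, 30392 to 31178 TPM in P7C3-A20 and 29832 to 31541 TPM in DMSO libraries, between 2.98% and 3.15% of each library, and the ranges overlapped. Their levels spanned from Cst3, the cystatin C gene, at 6928 ± 455 TPM in DMSO libraries to Itih3, a gene for a hyaluronan-linked serum protein, at 10.0 ± 1.10 TPM (SD, n = 3). In each group 26 members averaged over 100 TPM and 11 over 1000 TPM. For 36 of the 38 members the highest of the 9 libraries was under 1.5 times the lowest, and the exceptions were Dio2 and Lcat. Replicates lay close together, with a median coefficient of variation over the members of 2.67% in NAT, 4.07% in P7C3-A20 and 4.01% in DMSO libraries. The member with the fewest reads had 112 in a library, a counting error of 9.45%.

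**Figure D1:**
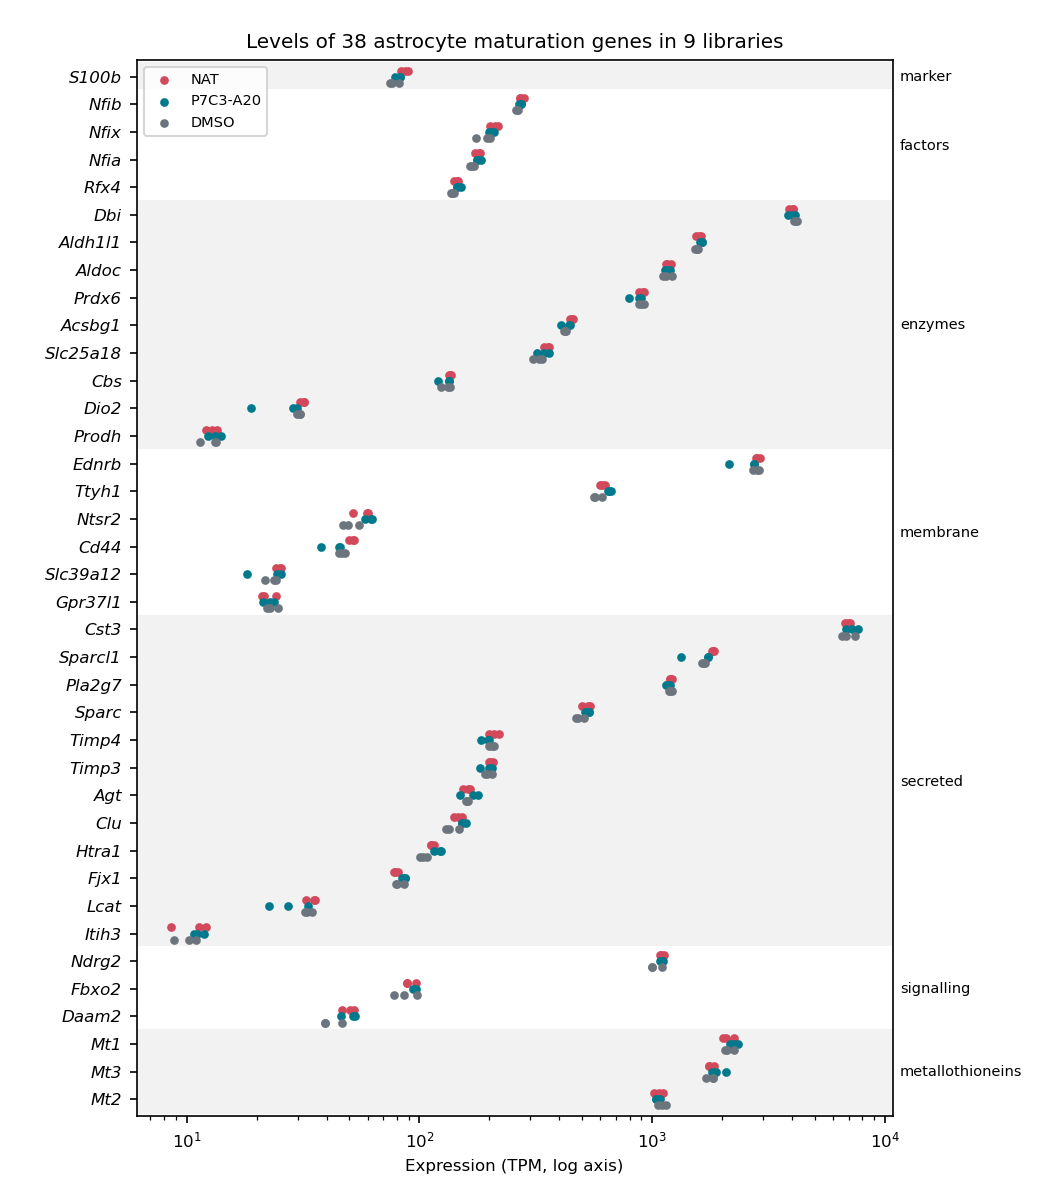
Level of each of the 38 members in TPM on a log axis, by role, with 1 point per library for NAT, P7C3-A20 and DMSO. Levels range from 7674 TPM for Cst3 to 8.57 TPM for Itih3, and the 3 groups lie on top of each other for nearly all members.

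No member passed the test in any of the 3 comparisons, with limma-trend on log2(TPM + 1) and adjustment over all 13839 genes. With NAT against DMSO, 0 of 38 members were called, beside 0.0289% of all genes, with P7C3-A20 against DMSO 0 of 38, beside 0.0217%, and with NAT against P7C3-A20 0 of 38, beside 0%. The lowest adjusted p by limma was 0.278 for S100b, 0.139 for Htra1 and Ttyh1, and 0.186 for Cd44. The 95% intervals bound the differences: all 38 lay within 1.5-fold in either direction in both comparisons with DMSO, and 37 of 38 did between the compounds, the exception being Dio2 with an upper bound of 1.51-fold. A p that misses the threshold does not show that the groups are alike.

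Counts below the adjusted threshold are given beside the share of all genes. At an unadjusted p under 0.05, with NAT against DMSO 10 of 38 members were higher and 0 lower, beside 8.67% of all genes higher and 3% lower. With P7C3-A20 against DMSO 9 were higher and 1 lower, beside 10.7% and 5.12% of all genes. With NAT against P7C3-A20 6 were higher and 3 lower, beside 9.92% and 5.89%. The 3 NAT libraries lay above all 3 DMSO libraries for 10 members and below for 1, where 14.1% and 4.89% of all genes did so. P7C3-A20 libraries lay above all DMSO libraries for 9 members and below for 1, where 13.1% and 7.49% of all genes did so. NAT libraries lay above all P7C3-A20 libraries for 7 members and below for 3, where 13.3% and 8.35% of all genes did so.

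The log2 fold change had a positive sign for 31 of 38 members with NAT against DMSO, for 24 with P7C3-A20 against DMSO and for 19 with NAT against P7C3-A20, where 63.5%, 55.2% and 54% of all genes did. The members' median was 0.055 against 0.0305 over all genes with NAT against DMSO, 0.057 against 0.015 with P7C3-A20 against DMSO, and -0.0013 against 0.011 between the compounds. With each library's trend with GC content removed, the number of positive members became 25, 19 and 24, and the medians 0.026, -0.0020 and 0.016. Both comparisons with DMSO use the same 3 DMSO libraries, so their values are given side by side and not as separate evidence.

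**Figure D2:**
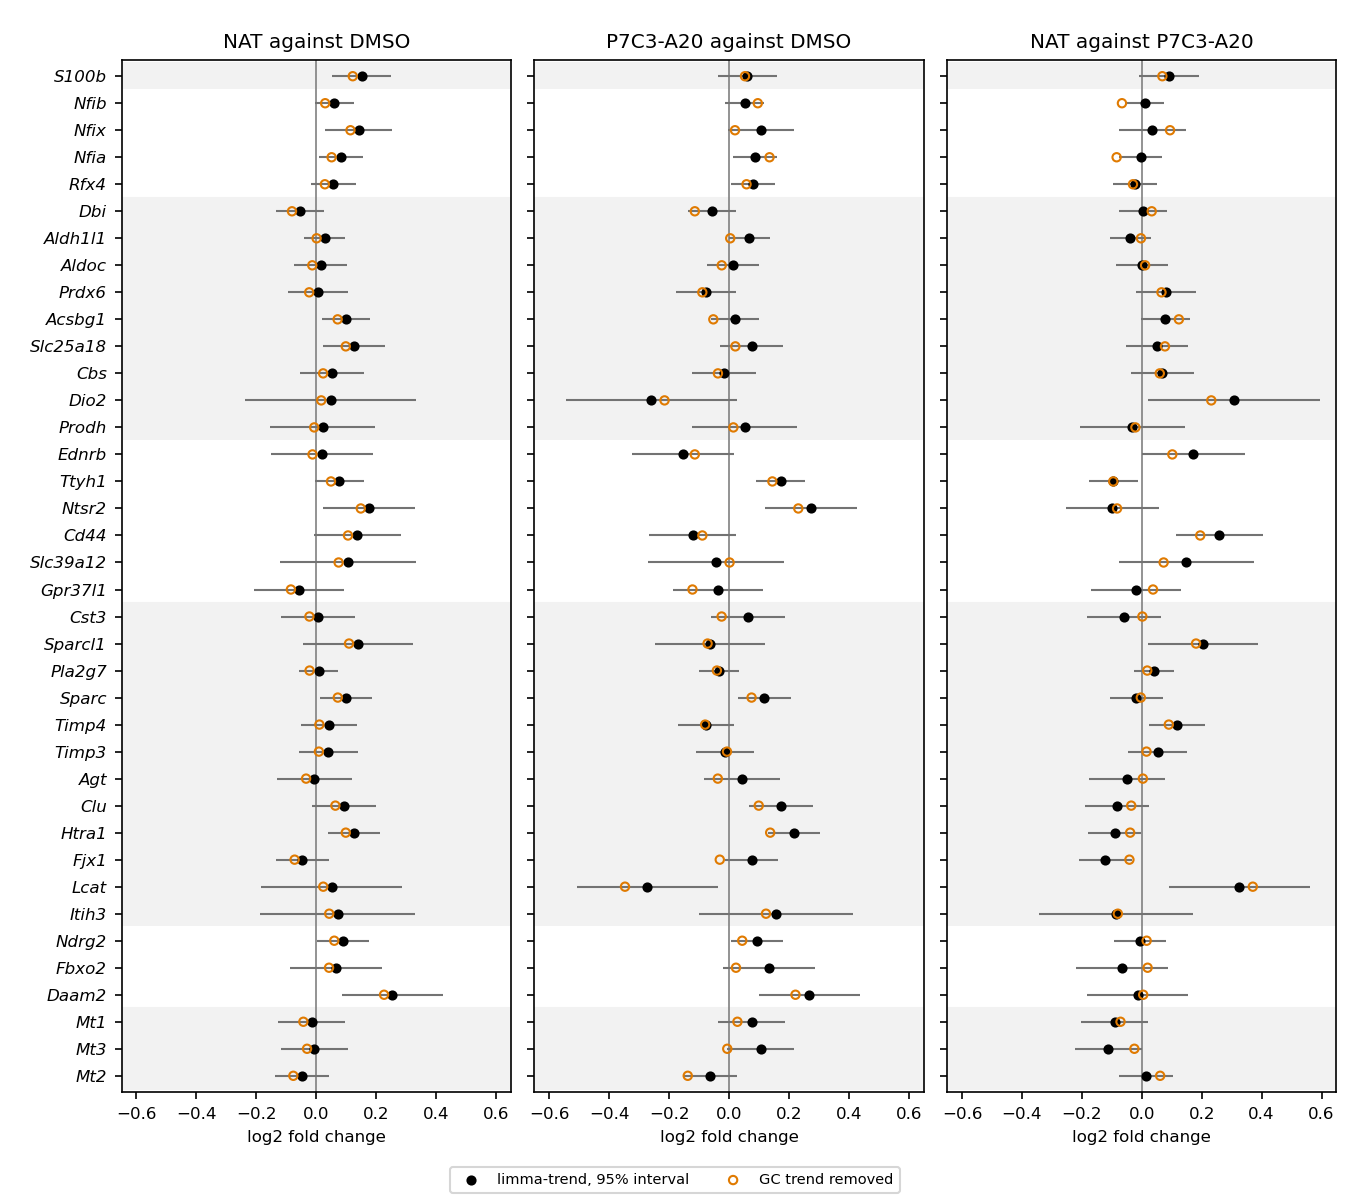
Log2 fold change of each member in the 3 comparisons by limma-trend with its 95% interval (black) and with the trend with GC content removed (open circles), in order of role. Most intervals include 0, and in both comparisons with P7C3-A20 the open circles of Fjx1, Fbxo2 and Mt3 lie nearer 0 than the black points or on its other side.

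S100b, the calcium binding protein whose appearance marks maturing astrocytes, was the member of lowest p with NAT against DMSO. It was at 86.7, 89.5 and 83.2 TPM in NAT libraries, 82.3, 78.4 and 82.6 TPM in P7C3-A20 libraries and 76.0, 82.0 and 75.1 TPM in DMSO libraries. All 3 NAT libraries lay above all libraries of the other groups, while P7C3-A20 and DMSO libraries overlapped. The log2 fold change by limma was 0.15 ± 0.045 (SE, adjusted p = 0.278) for NAT against DMSO, 0.062 ± 0.045 (adjusted p = 0.525) for P7C3-A20 against DMSO and 0.090 ± 0.045 (adjusted p = 0.35) for NAT against P7C3-A20.

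The 4 transcription factors, which act at the start of the astrocyte programme, had positive values in both comparisons with DMSO, and none passed the test. Nfib, for nuclear factor I B, was at 269.9, 269.7 and 281 TPM in NAT, 273, 269 and 274 TPM in P7C3-A20 and 259.8, 265 and 262 TPM in DMSO libraries. Nfix, for nuclear factor I X, was at 200.8, 212.1 and 218.0 TPM in NAT, 199.3, 210.1 and 206.0 TPM in P7C3-A20 and 175.7, 200.7 and 195.6 TPM in DMSO libraries. Nfib lay above every DMSO library with both compounds, Nfix did so narrowly with NAT, and Nfix of P7C3-A20 overlapped with DMSO. Nfia, for the nuclear factor I A that turns on gliogenesis, was at 173, 181 and 183 TPM in NAT, 177, 177 and 184 TPM in P7C3-A20 and 166, 168 and 172 TPM in DMSO libraries, again without overlap with DMSO. With limma the log2 fold changes against DMSO ran from 0.058 ± 0.034 for Rfx4, a regulatory factor X of neural progenitors, to 0.14 ± 0.051 (adjusted p = 0.338) for Nfix in NAT, and from 0.052 ± 0.029 for Nfib to 0.11 ± 0.051 (adjusted p = 0.332) for Nfix in P7C3-A20. Between the compounds the values of the 4 factors ran from -0.023 ± 0.034 to 0.035 ± 0.051. With the GC trend removed they ran from -0.084 ± 0.043 for Nfia to 0.094 ± 0.040 for Nfix (limma, adjusted p = 0.475 and 0.399). For P7C3-A20 against DMSO they then ran from 0.020 ± 0.040 for Nfix to 0.14 ± 0.043 for Nfia (limma, adjusted p = 0.891 and 0.313).

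Among the 9 enzymes and metabolite binding proteins, 8 had positive values with NAT against DMSO, 5 with P7C3-A20 against DMSO and 7 with NAT against P7C3-A20. Dbi, for the acyl-CoA binding protein that also acts on GABA receptors, was at 4037, 4023 and 3882 TPM in NAT, 4097, 3977 and 3847 TPM in P7C3-A20 and 4205, 4053 and 4132 TPM in DMSO libraries. Aldh1l1, for the folate enzyme used as a general astrocyte marker, was at 1543, 1622 and 1589 TPM in NAT, 1604, 1639 and 1637 TPM in P7C3-A20 and 1526, 1558 and 1576 TPM in DMSO libraries. Dbi was the single member whose NAT libraries all lay below DMSO. Acsbg1, for a fatty acyl-CoA synthetase, was at 446, 454 and 458 TPM in NAT, 438, 444 and 405 TPM in P7C3-A20 and 419, 427 and 421 TPM in DMSO libraries, with 0.10 ± 0.036 on the log2 scale for NAT against DMSO by limma (adjusted p = 0.346). Slc25a18, for a mitochondrial glutamate carrier, was at 343, 359.9 and 359 TPM in NAT, 345, 360.4 and 320.5 TPM in P7C3-A20 and 327, 308 and 338 TPM in DMSO libraries, and its log2 fold change for NAT against DMSO was 0.13 ± 0.048 (limma, adjusted p = 0.357). NAT libraries of both genes lay above every DMSO library. Aldoc, for brain aldolase, lay between 1114 and 1223 TPM in all 9 libraries, and Prdx6, for a peroxiredoxin, between 793 and 924 TPM. Cbs, for cystathionine beta-synthase, ranged over 119.9 to 136.3 TPM and Prodh, for proline dehydrogenase, over 11.5 to 14.0 TPM.

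Dio2, for the deiodinase with which astrocytes make active thyroid hormone, was the most variable member. It was at 31.9, 30.6 and 32.0 TPM in NAT, 29.8, 28.7 and 18.9 TPM in P7C3-A20 and 30.8, 29.9 and 30.6 TPM in DMSO libraries. The low value was that of P7C3-A20 replicate 3, and the other 8 libraries lay close together. By limma the log2 fold change was 0.31 ± 0.13 for NAT against P7C3-A20 (adjusted p = 0.29), and 0.10 ± 0.047 without that library (adjusted p = 0.523). For P7C3-A20 against DMSO it was -0.26 ± 0.13 (adjusted p = 0.358), and -0.057 ± 0.047 without that library. NAT against DMSO gave 0.048 ± 0.13. Without P7C3-A20 replicate 3, which enters the SE shared by all groups, it was 0.048 ± 0.042 (limma, adjusted p = 0.639).

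Of the 6 receptors and membrane proteins, Ttyh1 had the lowest p with P7C3-A20 against DMSO and Cd44 between the compounds. Ednrb, for the endothelin receptor B, was at 2905, 2824 and 2805 TPM in NAT, 2728, 2744 and 2148 TPM in P7C3-A20 and 2823, 2726 and 2874 TPM in DMSO libraries. Only P7C3-A20 replicate 3 was low, and the log2 fold change for NAT against P7C3-A20 was 0.17 ± 0.077 with it and 0.056 ± 0.030 without it (limma, adjusted p = 0.312 and 0.587). Ttyh1, for a membrane protein of the tweety family, was at 596, 628 and 611 TPM in NAT, 650.4, 646 and 664 TPM in P7C3-A20 and 563, 566 and 611 TPM in DMSO libraries. All P7C3-A20 libraries lay above all libraries of the other groups, with 0.17 ± 0.037 on the log2 scale for P7C3-A20 against DMSO (limma, adjusted p = 0.139) and -0.10 ± 0.037 for NAT against P7C3-A20 (adjusted p = 0.266). Ntsr2, for the neurotensin receptor of astrocytes, was at 51.8, 59.5 and 60.4 TPM in NAT, 62.2, 58.5 and 62.9 TPM in P7C3-A20 and 49.4, 47.0 and 55.2 TPM in DMSO libraries. P7C3-A20 libraries lay above every DMSO library, while NAT libraries overlapped with both groups. By limma the log2 fold changes of Ntsr2 were 0.18 ± 0.070 for NAT (adjusted p = 0.387) and 0.27 ± 0.070 for P7C3-A20 (adjusted p = 0.158).

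Cd44, for the hyaluronan receptor of immature and reactive astrocytes, was the member of lowest p between the compounds. It was at 52.4, 49.9 and 51.8 TPM in NAT, 45.6, 45.1 and 37.9 TPM in P7C3-A20 and 46.6, 45.1 and 48.1 TPM in DMSO libraries. NAT libraries lay above all others, and P7C3-A20 replicate 3 lay below all others. The log2 fold change by limma was 0.26 ± 0.065 for NAT against P7C3-A20 (adjusted p = 0.186), 0.17 ± 0.043 without P7C3-A20 replicate 3 (adjusted p = 0.347) and 0.14 ± 0.065 for NAT against DMSO (adjusted p = 0.44). Slc39a12, for a zinc importer of astrocytes, lay between 18.2 and 25.6 TPM, with the lowest value in P7C3-A20 replicate 3. Gpr37l1, for a glial receptor-like protein, lay between 21.1 and 24.6 TPM.

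**Figure D3:**
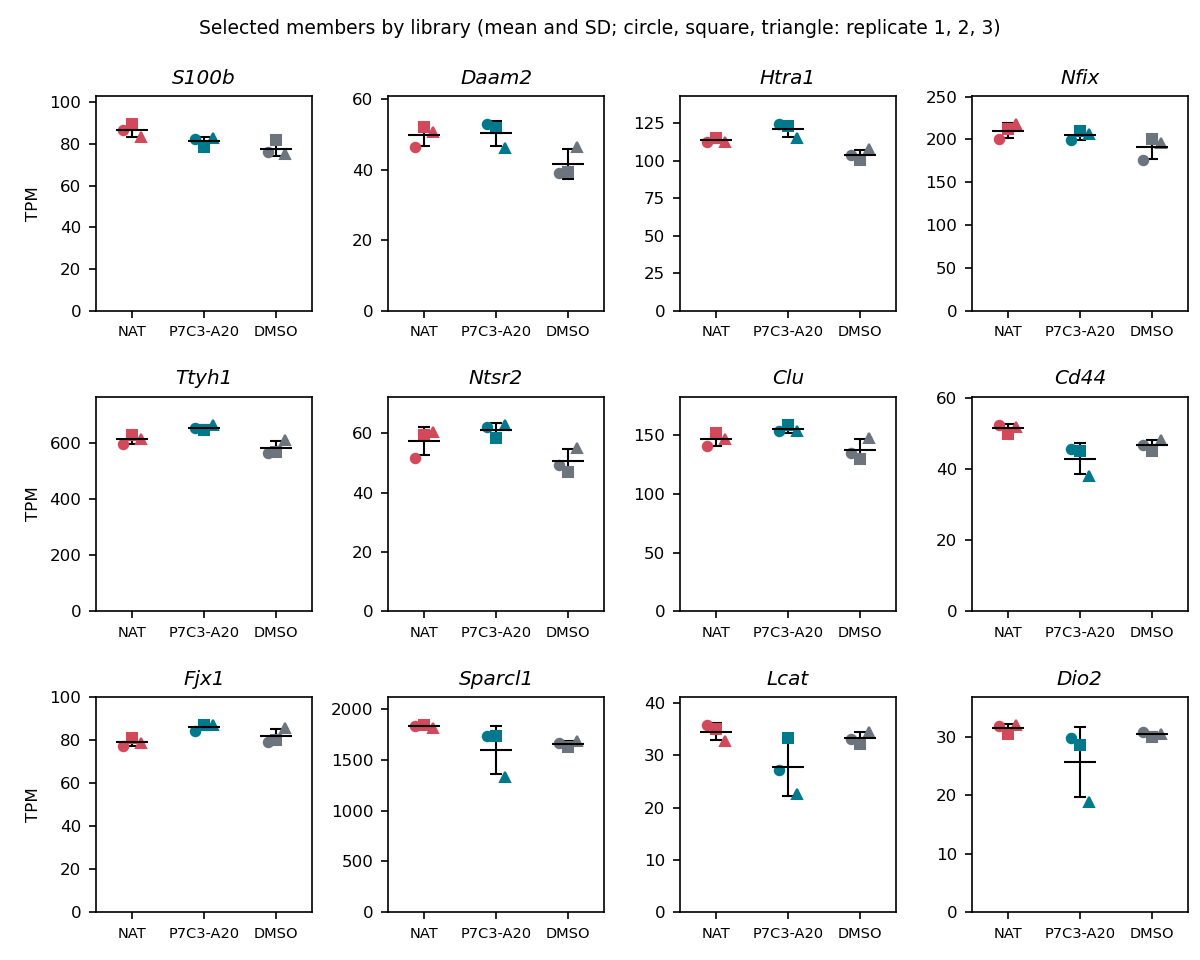
TPM of selected members of low p in each library, with the mean and SD of each group of 3 (circle, square and triangle for replicates 1, 2 and 3) on axes that start at 0. Cd44 and S100b are highest in NAT libraries, Ttyh1 and Clu are highest in P7C3-A20 libraries, and the low points of Dio2, Lcat and Sparcl1 are P7C3-A20 replicate 3.

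The 12 secreted and matrix proteins held the most abundant member and several of the lowest p. Cst3, for the protease inhibitor cystatin C, was at 6963, 7111 and 6758 TPM in NAT, 6811, 7226 and 7674 TPM in P7C3-A20 and 6548, 6803 and 7432 TPM in DMSO libraries. The groups overlapped, and the log2 fold changes by limma were 0.0051 ± 0.056 for NAT against DMSO and 0.063 ± 0.056 for P7C3-A20 against DMSO (adjusted p = 0.982 and 0.607). Sparcl1, for hevin, a protein that astrocytes secrete to promote synapses, was at 1831, 1841 and 1817 TPM in NAT, 1735, 1740 and 1328 TPM in P7C3-A20 and 1665, 1631 and 1686 TPM in DMSO libraries. NAT libraries lay above all others. For P7C3-A20 against DMSO the sign depended on replicate 3, with -0.064 ± 0.083 in all libraries and 0.065 ± 0.025 without it, and for NAT against P7C3-A20 the value was 0.20 ± 0.083 and 0.075 ± 0.025 (limma, adjusted p = 0.278 and 0.422). Sparc, for the matricellular protein that opposes hevin, was at 498, 538 and 531 TPM in NAT, 534, 536 and 517 TPM in P7C3-A20 and 472, 480.1 and 510.1 TPM in DMSO libraries. P7C3-A20 libraries of Sparc lay above every DMSO library and NAT libraries overlapped with DMSO, with log2 fold changes of 0.12 ± 0.040 and 0.10 ± 0.040 against DMSO (limma, adjusted p = 0.209 and 0.39).

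Htra1, for a secreted serine protease, was the member of lowest p with P7C3-A20 against DMSO. It was at 112, 115 and 113 TPM in NAT, 124, 123 and 115 TPM in P7C3-A20 and 104, 101 and 108 TPM in DMSO libraries. The libraries of both compounds lay above all DMSO libraries. The log2 fold change by limma was 0.22 ± 0.040 for P7C3-A20 (adjusted p = 0.139) and 0.13 ± 0.040 for NAT (adjusted p = 0.295) against DMSO, and with the GC trend removed 0.14 ± 0.043 for P7C3-A20 against DMSO (adjusted p = 0.313). Clu, for the lipid carrier and chaperone clusterin, was at 140.5, 152 and 146 TPM in NAT, 153, 159 and 153 TPM in P7C3-A20 and 134, 129.6 and 148 TPM in DMSO libraries. P7C3-A20 libraries of Clu lay above all others, with 0.17 ± 0.049 on the log2 scale against DMSO and 0.10 ± 0.042 with the GC trend removed (limma, adjusted p = 0.17 and 0.422).

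Lcat, for the enzyme that esterifies cholesterol on lipoproteins, was at 35.8, 35.1 and 32.7 TPM in NAT, 27.2, 33.3 and 22.5 TPM in P7C3-A20 and 33.1, 32.3 and 34.5 TPM in DMSO libraries. P7C3-A20 libraries were spread widely, and 1 of them overlapped with DMSO. By limma the log2 fold change was 0.32 ± 0.11 for NAT against P7C3-A20 (adjusted p = 0.218), and 0.19 ± 0.080 without P7C3-A20 replicate 3. For P7C3-A20 against DMSO it was -0.27 ± 0.11 (adjusted p = 0.255), and -0.14 ± 0.080 without that library. P7C3-A20 replicate 2 deviated by 0.42 from the other 2 on the log2 scale and replicate 3 by -0.40, and without replicate 2 the values were 0.46 for NAT against P7C3-A20 (limma, adjusted p = 0.169) and -0.41 for P7C3-A20 against DMSO (adjusted p = 0.265). Fjx1, the mammalian relative of the fly four-jointed gene, was at 77.5, 81.0 and 78.8 TPM in NAT, 84.5, 87.0 and 87.0 TPM in P7C3-A20 and 79.3, 80.1 and 85.9 TPM in DMSO libraries, and NAT libraries lay below all P7C3-A20 libraries. Its log2 fold change for NAT against P7C3-A20 was -0.12 ± 0.040, and -0.041 ± 0.032 with the GC trend removed (limma, adjusted p = 0.217 and 0.657). Timp4, for a metalloproteinase inhibitor, was at 210.3, 200.2 and 220.0 TPM in NAT, 199.5, 196.3 and 184.8 TPM in P7C3-A20 and 208.7, 199.0 and 204.6 TPM in DMSO libraries, and NAT libraries again did not overlap with P7C3-A20. Pla2g7, for an enzyme that inactivates platelet activating factor, ranged over 1143 to 1216 TPM, Timp3 over 182 to 206 TPM, Agt, for angiotensinogen, over 149 to 179 TPM. Itih3 was among the more variable members, at 8.57, 11.3 and 12.1 TPM in NAT, 10.8, 11.8 and 11.1 TPM in P7C3-A20 and 8.84, 10.2 and 11.02 TPM in DMSO libraries, with a coefficient of variation of 17.3% in NAT libraries, and the groups overlapped.

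Of the 3 intracellular signalling and turnover genes, Daam2 had the largest estimate against the vehicle. Ndrg2, a gene of the N-myc downstream regulated family and an astrocyte marker, was at 1088, 1121 and 1083 TPM in NAT, 1100, 1118 and 1084 TPM in P7C3-A20 and 999.7, 1000 and 1099 TPM in DMSO libraries. Fbxo2, for an F-box protein that marks glycoproteins for degradation, was at 88.7, 97.0 and 88.3 TPM in NAT, 96.9, 95.7 and 94.2 TPM in P7C3-A20 and 86.2, 78.0 and 98.0 TPM in DMSO libraries. DMSO replicate 3 was the highest DMSO library for both, and DMSO overlapped with the compounds. Daam2, for a formin that binds Dishevelled in Wnt signalling, was at 46.5, 52.2 and 50.6 TPM in NAT, 53.0, 51.8 and 46.1 TPM in P7C3-A20 and 39.2, 39.2 and 46.6 TPM in DMSO libraries. The log2 fold change by limma was 0.25 ± 0.076 for NAT (adjusted p = 0.284) and 0.27 ± 0.076 for P7C3-A20 (adjusted p = 0.172) against DMSO, and DMSO replicate 3 lay above the lowest library of each compound.

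The 3 metallothioneins, which bind zinc and copper, lie close together on chromosome 8 and are abundant here. Mt1 was at 2078, 2247 and 2009 TPM in NAT, 2165, 2238 and 2338 TPM in P7C3-A20 and 2094, 2055 and 2250 TPM in DMSO libraries. Mt3, the brain metallothionein, was at 1748, 1844 and 1748 TPM in NAT, 1814, 1882 and 2082 TPM in P7C3-A20 and 1711, 1824 and 1830 TPM in DMSO libraries. Mt2 was at 1015 to 1143 TPM over the 9 libraries, and all 3 genes overlapped between the groups. With limma the log2 fold changes were -0.015 ± 0.050, -0.048 ± 0.041 and -0.0066 ± 0.051 for Mt1, Mt2 and Mt3 with NAT against DMSO, and 0.075 ± 0.050, -0.063 ± 0.041 and 0.11 ± 0.051 with P7C3-A20 against DMSO, with adjusted p of at least 0.344. The values with P7C3-A20 against DMSO were 0.047 ± 0.051 for Mt1 and 0.048 ± 0.039 for Mt3 without P7C3-A20 replicate 3, and 0.028 ± 0.047 and -0.0058 ± 0.036 with the GC trend removed. These paralogs have similar sequences, and how the counting split reads between them is not given in the sources used here. Among other metal handling genes, the zinc exporter gene Slc30a1 was at 19.9, 23.0 and 23.1 TPM in NAT, 21.5, 20.1 and 21.0 TPM in P7C3-A20 and 24.0, 25.2 and 22.0 TPM in DMSO libraries, and 0 of 11 measured genes of that list were called in any comparison.

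Each library was set against the other 2 of its group. P7C3-A20 replicate 3 differed from the mean of the other 2 P7C3-A20 libraries by more than 0.2 on the log2 scale for 7 members: Dio2 by -0.61, Slc39a12 by -0.43, Lcat by -0.40, Sparcl1 by -0.39, Ednrb by -0.35, Cd44 by -0.25 and Agt by -0.22. Mt3 was 0.17 and Cst3 0.13 higher there. In the same group, replicate 2 stood higher than the other 2 by 0.42 for Lcat, 0.26 for Dio2 and 0.25 for Slc39a12, and replicate 1 by 0.34 for Dio2. In the NAT and DMSO groups deviations beyond 0.2 were found for 4 members: Itih3 (-0.41 in NAT replicate 1, 0.27 in NAT replicate 3 and -0.24 in DMSO replicate 1), Ntsr2 (-0.21 in NAT replicate 1), Fbxo2 (-0.23 in DMSO replicate 2 and 0.25 in DMSO replicate 3) and Daam2 (0.24 in DMSO replicate 3). Over the 38 members the deviation of P7C3-A20 replicate 3 had a Spearman correlation of 0.307 with GC content (Pearson 0.448), a description of 1 library in which genes share depth and base composition. The same correlation was -0.48 in P7C3-A20 replicate 1, 0.422 in DMSO replicate 3 and 0.403 in NAT replicate 2, so P7C3-A20 replicate 3 did not stand apart by it. Its median absolute deviation was 0.078 over the members and 0.098 over all genes. DMSO replicate 3 lay above the mean of the other 2 DMSO libraries for 34 of 38 members, with a median of 0.075. The matching share over all genes was not counted. DMSO replicate 1 was the lowest of all 9 libraries for 11 members, and for 17.6% of all genes tested. The part of base composition in the differences between groups was not tested beyond the values with the GC trend removed, and over the members the log2 fold change had a Spearman correlation with GC content of -0.246 with NAT against DMSO, 0.393 with P7C3-A20 against DMSO and -0.573 with NAT against P7C3-A20.

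**Figure D4:**
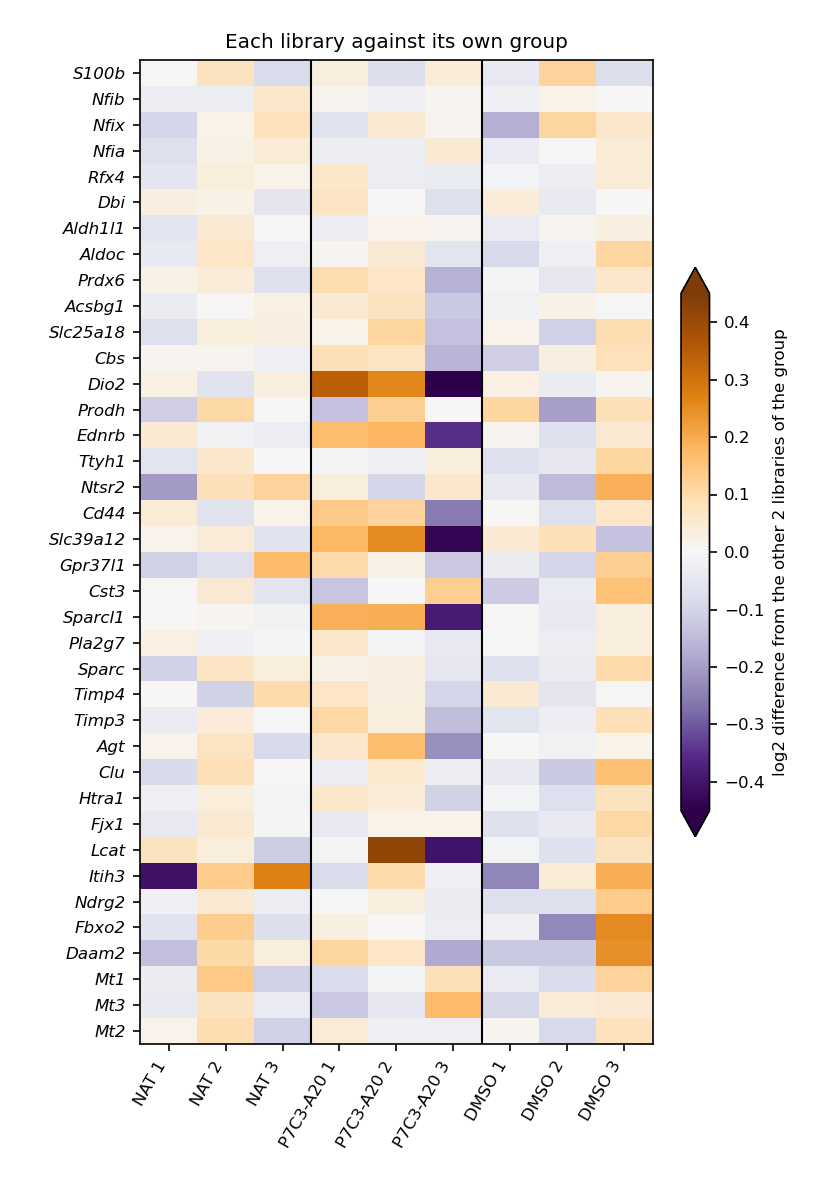
Deviation of each member in each library from the mean of the other 2 libraries of its group, on the log2 scale. P7C3-A20 replicate 3 has the widest spread, down to -0.61, and DMSO replicate 3 lies mostly above 0.

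**Figure D5:**
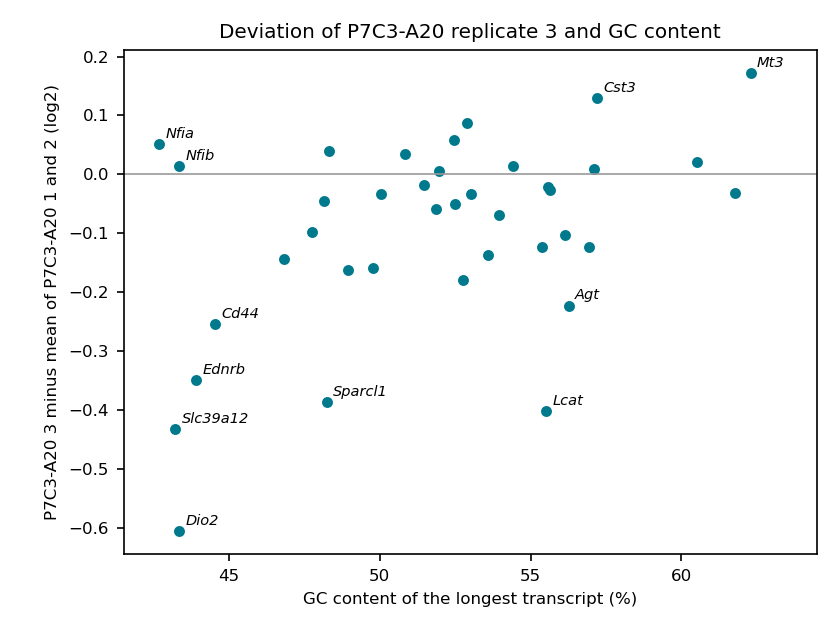
Deviation of P7C3-A20 replicate 3 from the other 2 P7C3-A20 libraries for each member (log2) against the GC content of its longest transcript in percent. Dio2, Slc39a12, Ednrb and Cd44, with low GC content, are far below 0, while Nfia and Nfib, with similar GC content, are not.

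Among other astrocyte genes, 30 tested of 32 listed, none was called in any comparison. With NAT against DMSO 23 of 30 had positive values, with P7C3-A20 against DMSO 20 and with NAT against P7C3-A20 19, with medians of 0.083, 0.044 and 0.019. Hepacam, for an adhesion protein of astrocyte junctions, was at 399, 421 and 409 TPM in NAT, 395, 405 and 419.6 TPM in P7C3-A20 and 339.5, 361 and 378 TPM in DMSO libraries. The libraries of both compounds lay above all DMSO libraries, with log2 fold changes by limma of 0.19 ± 0.042 and 0.18 ± 0.042 (adjusted p = 0.21 and 0.153). Atp1b2, for a sodium pump subunit of astrocytes, and Kcnj10, for the inward rectifier potassium channel of astrocytes, had log2 fold changes of 0.20 ± 0.044 and 0.11 ± 0.030 with NAT against DMSO (limma, adjusted p = 0.21 and 0.26). In that comparison 7 of the 30 genes had negative values, and the list ran from -0.28 to 0.24. Between the compounds, Slc1a2, for the glutamate transporter of mature astrocytes, was at 273, 267 and 274 TPM in NAT and 246, 242 and 195 TPM in P7C3-A20 libraries, with the lowest value in P7C3-A20 replicate 3, and Mfge8, for a secreted bridging protein of phagocytosis, was at 749, 789 and 762 TPM in NAT and 828, 880 and 1000 TPM in P7C3-A20 libraries.

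Genes that work beside the members were counted in the same way, with 0 called in any comparison. Of 15 other gliogenic transcription factors, 10 had positive values with NAT against DMSO, 9 with P7C3-A20 against DMSO and 7 with NAT against P7C3-A20. Hes5, the Notch target that holds radial glia in the stem state, was at 119.8, 127 and 117 TPM in NAT, 130.1, 142 and 152 TPM in P7C3-A20 and 137, 163 and 164 TPM in DMSO libraries, and NAT libraries lay below all others. Its log2 fold change by limma was -0.34 ± 0.073 for NAT against DMSO (adjusted p = 0.21). Of 19 extracellular proteases, inhibitors and clusterin partners, 12, 6 and 14 had positive values in these comparisons. Mmp14, for a membrane matrix protease, was at 139.5, 145 and 145 TPM in NAT, 149, 155 and 166 TPM in P7C3-A20 and 124, 136 and 136 TPM in DMSO libraries, with a log2 fold change of 0.24 ± 0.049 for P7C3-A20 against DMSO (limma, adjusted p = 0.139). Its libraries lay in the order P7C3-A20, NAT, DMSO without overlap.

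The partners of Dio2, Prodh, Cbs, Slc25a18 and Ednrb gave no call either. Of 7 thyroid hormone genes tested, 5 had positive values with NAT against DMSO, 4 with P7C3-A20 against DMSO and 3 with NAT against P7C3-A20, and Thra, for a thyroid hormone receptor, had 0.17 ± 0.046 on the log2 scale with P7C3-A20 against DMSO (limma, adjusted p = 0.169). Of 13 genes of proline, transsulfuration and mitochondrial glutamate handling, 10, 11 and 7 had positive values in the same order of comparisons, and Aldh4a1, which acts after Prodh in proline breakdown, had 0.16 ± 0.040 with P7C3-A20 against DMSO (limma, adjusted p = 0.158). Of 6 genes of the renin-angiotensin, endothelin and neurotensin systems, 5, 5 and 3 had positive values. Psap, for prosaposin, a proposed ligand of the Gpr37l1 receptor, was at 1519, 1602 and 1547 TPM in NAT, 1559, 1551 and 1670 TPM in P7C3-A20 and 1372, 1404 and 1468 TPM in DMSO libraries, and the libraries of both compounds lay above all DMSO libraries.

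Genes of other classes were counted beside the members, also without any called gene. All 12 proliferation genes had higher values with NAT than with P7C3-A20, with a median log2 fold change of 0.21, and summed to 1334 to 1383 TPM in NAT and 1133 to 1222 TPM in P7C3-A20 libraries. All 12 oligodendrocyte lineage genes tested had lower values there, with a median of -0.21. The 14 genes listed for that lineage summed to 3516 to 3663 TPM in NAT and 3686 to 4244 TPM in P7C3-A20 libraries. Of 16 reactive astrocyte genes tested 13 had higher values with NAT than with P7C3-A20, with a median of 0.13. The 20 reactive genes listed summed to 683.5 to 691.7 TPM in NAT and 551.5 to 655.4 TPM in P7C3-A20 libraries. Among P7C3-A20 libraries, replicate 3 had the lowest proliferation and reactive sums and the highest oligodendrocyte sum. The part of these lists in the members' values was not tested.

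The number of calls differed with voom, which here took recovered reads in place of log2(TPM + 1), scaled them by library totals and weighted them, so that the parts of these steps cannot be told apart. With voom on the recovered reads, 5 members were higher with P7C3-A20 than with DMSO at an adjusted p under 0.05. These were Ttyh1 (0.19 ± 0.035, adjusted p = 0.00737), Htra1 (0.23 ± 0.046, 0.00856), Daam2 (0.29 ± 0.060, 0.0116), Ntsr2 (0.29 ± 0.071, 0.0264) and Clu (0.19 ± 0.049, 0.0342). In that fit 2.86% of all genes were called higher with P7C3-A20 than with DMSO. Cd44 was the single member called between the compounds by voom, at 0.24 ± 0.053 for NAT against P7C3-A20 (adjusted p = 0.0265), beside 0.968% of all genes called higher, and 0 members were called with NAT against DMSO, beside 0.26%. The number of members called by voom moved when single libraries were left out. The count of all genes called moved too, so these shifts are not a result about the members alone. Its ranges, and its values with other scaling, are given in the last section. With P7C3-A20 against DMSO, 0 members were called when DMSO replicate 1 or replicate 2 was left out, where the log2 fold changes of the 5 were 0.17 and 0.17 for Ttyh1, 0.23 and 0.21 for Htra1, 0.24 and 0.25 for Daam2, 0.27 and 0.24 for Ntsr2, and 0.17 and 0.15 for Clu. It was 6 when P7C3-A20 replicate 2 or replicate 3 was left out, and 8 when DMSO replicate 3 or P7C3-A20 replicate 1 was left out. With NAT against P7C3-A20, 0 members were called without P7C3-A20 replicate 3, where Cd44 was at 0.16 (voom, adjusted p = 0.0851), and 0 without any one of the NAT libraries, but 6 without P7C3-A20 replicate 1 and 5 without P7C3-A20 replicate 2. With NAT against DMSO, 1 member was called without DMSO replicate 3. With median-of-ratios scaling and the GC trend removed, Ttyh1 was the single member voom called with P7C3-A20 against DMSO, and Cd44 was not called between the compounds (0.19, adjusted p = 0.053).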

How the data were processed

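RNA was sequenced from 9 libraries prepared with an Illumina TruSeq kit, per the labels' protocols, 3 for each of NAT, P7C3-A20 and DMSO. The authors deposited TPM, reads per gene length scaled so that each library sums to 1000000. Bowtie 0.12.2 and the builds mm8 and mm9 appear, with no role, per the submitters' processing notes. Which counter and annotation served is not given in the sources. The kit is not stated to mark strand, so overlapping genes cannot be told apart.

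Groups were compared with limma 3.58.1 in R 4.3.3 (limma-trend, two-sided, log2(TPM + 1)), over 13839 genes with at least 1 TPM in at least 3 libraries. A single model of all 9 libraries had 6 residual degrees of freedom. P-values were adjusted by Benjamini-Hochberg over these genes and called under 0.05. Fold changes on this scale understate those of low genes, and ± marks the SE of a log2 fold change or the SD of a level. Whole reads were recovered from the steps of the TPM for 19302 of 19302 genes (100%, tolerance 0.001). On these reads limma's voom called 36 genes with NAT against DMSO, 468 with P7C3-A20 against DMSO and 254 with NAT against P7C3-A20. GC content came from the longest GENCODE transcript, and its trend was removed with a spline of 5 degrees of freedom. The limma-trend fit and the recovery of reads were checked on simulated data. The voom fit and the removal of the GC trend were not. Other steps ran in Python 3.11.15 with pandas 2.3.3, numpy 2.4.6 and, for plots, matplotlib 3.10.9.

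The members and gene lists were chosen with earlier results of these data known. Members described in full are the 8 of lowest p in each comparison and the 2 most abundant of each role. Of other lists, genes among the 3 of lowest p in a comparison were named, while Sox2, Nes and the genes at 0 TPM, which check the labelled cells, fall outside that rule and were chosen after their values were seen. Alternatives were another filter, pseudocount, scaling, the replicate block, the GC trend removed and each library left out.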

Additional observations from a re-analysis of the deposited data

How the results depend on the processing

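For the 38 members, 0 were called by limma-trend in any of the 14 other settings of each comparison, and the lowest adjusted p among them was 0.0746. These settings do not include NAT against DMSO without P7C3-A20 replicate 3, given above for Dio2. In that fit Sparcl1 had the lowest adjusted p of the members, at 0.14 ± 0.022 (limma, adjusted p = 0.072). With all libraries Sparcl1 was at 0.14 ± 0.083 in this comparison (limma, adjusted p = 0.527). The 24 log2 fold changes of members named for low p kept their sign and their side of the threshold in all 336 values of the 14 settings, and 0 reversed in any setting. They were picked by low p in the same libraries, so their stable signs follow in part from that choice. Outside that choice signs did change, as given above for Sparcl1 with P7C3-A20 against DMSO. Among the 216 values by voom, 42 passed the threshold. The count of all genes called moved more. With NAT against DMSO it was 4, against 2 at a minimum of 5 TPM, 1 with a pseudocount of 0.1 and 8 in the 6 compared libraries alone. With P7C3-A20 against DMSO it was 3, against 7 with the replicate block, 0 at a minimum of 5 TPM, 0 with a pseudocount of 0.1, 1 with the GC trend removed and the replicate block, and 5 in the 6 libraries alone. With NAT against P7C3-A20 it was 0 (2188 genes at an unadjusted p under 0.05), against 1 with the replicate block and 5 in the 6 libraries alone.

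On recovered reads, voom called 36, 468 and 254 genes in NAT against DMSO, P7C3-A20 against DMSO and NAT against P7C3-A20. Chosen after seeing the data, median-of-ratios scaling gave 28, 248 and 322 genes, and the same scaling with the GC trend removed 53, 35 and 59. Members called by voom numbered 0, 5 and 1, with median-of-ratios scaling 0, 3 and 1, and with that scaling and the GC trend removed 0, 1 and 0. Leaving out each library in turn, by limma-trend or, as an addition, by voom, gave 0 to 62 genes and 0 to 1 members with NAT against DMSO, 0 to 872 genes and 0 to 8 members with P7C3-A20 against DMSO, and 0 to 726 genes and 0 to 6 members with NAT against P7C3-A20. The causes were not tested.

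The replicate numbers gave no visible pairing of the libraries. Correlations of same-numbered libraries' deviations from their group means ran from -0.062 to 0.067, and those of differently numbered libraries from -0.09 to 0.099. The replicate block changed no member's call. Whether same-numbered libraries shared a culture or a day was not tested. The few reads of Itih3 and Prodh, 112 in a library, limit their precision to a counting error of 9.45%, which covers counting error only.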
